A study of Homo sapiens with 12 samples.

Results

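The genes described here are 34 p53 targets and DNA damage response genes, taken by name from the 58735 genes of the count table of an RNA-sequencing experiment on THP1 monocytes. THP1 is an established human leukaemia line of monocytic cells and is known to lack functional p53. Of the 34 genes, 32 reached a total of at least 10 counts over the 12 libraries and were tested among 25873 genes, while CDKN2A and CDKN2B had no count in any library. The question was whether 24 h beside endothelial cells (ECs) damaged with etoposide leaves a trace of DNA damage or of bystander senescence in the RNA of the monocytes.

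Each of the 4 groups had 3 libraries. Mono-culture was THP1 cells kept alone in endothelial cell medium. In the 3 co-cultures, 400000 THP1 cells per well sat in inserts with 1 µm pores above 500000 human umbilical vein ECs. The control ECs had received the solvent DMSO, the senECs 10 µM etoposide for 24 h, and the EGCG-treated senECs the same etoposide followed by 100 µM of the green tea catechin EGCG for 24 h. ECs were collected, washed and plated anew before the THP1 cells were added, so that the drugs were given to the ECs and not to the monocytes. After 24 h the THP1 cells of every group, mono-culture included, were taken out and given LPS at 100 ng/ml, and RNA was isolated 2 h later. The libraries are numbered 1, 2 and 3 in mono-culture and with control ECs and 1, 2 and 5 with senECs and EGCG-treated senECs. The labels do not say whether libraries of 1 group came from separate cultures, so that the p-values measure only the spread between these samples.

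p53 is a transcription factor that kinases such as ATM and ATR stabilise after DNA breaks. It binds pairs of short half-sites in the DNA and switches on genes that halt the cell cycle (CDKN1A, which encodes p21), repair DNA (DDB2, XPC), start apoptosis (BAX, BBC3) and end its own response (MDM2, PPM1D). Senescent cells secrete factors that are known to induce arrest in their neighbours, a process called bystander senescence, and the inhibitors p16 and p15, the products of CDKN2A and CDKN2B, mark arrest that does not need p53. Several of these genes also answer to other signals, among them GADD45B and BTG2, which inflammatory stimuli induce.

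The sequences below show where the window around the start of a gene, from 250 bases before it to 50 bases after it, holds a p53 half-site. They were read from RefSeq on build GRCh38.p14, where 29 of the 34 genes had 41 such windows. A half-site, in capitals, was found in 7 of the 41 windows (17.1%), belonging to 7 genes, and in 2329 of the 35116 windows of all genes (6.63%). The search covered both strands. Each sequence reads 5′ to 3′ on the strand of its gene, and the match is a description of these letters, not a binding site measured here.
DDB2, chr11:47214965-47215003, plus strand, which holds 2 half-sites separated by a single base: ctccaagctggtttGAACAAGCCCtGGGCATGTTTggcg
SESN1, chr6:109009014-109009051, minus strand: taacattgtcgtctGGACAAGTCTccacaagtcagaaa
FAS, chr10:88991295-88991332, plus strand: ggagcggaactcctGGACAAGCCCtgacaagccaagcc
RPS27L, chr15:63157513-63157550, minus strand: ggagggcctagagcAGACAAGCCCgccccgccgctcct
PLK2, chr5:58460195-58460232, minus strand: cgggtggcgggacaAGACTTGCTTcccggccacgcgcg
AEN, chr15:88621292-88621329, plus strand: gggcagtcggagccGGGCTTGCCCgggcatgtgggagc
FDXR, chr17:74872982-74873019, minus strand: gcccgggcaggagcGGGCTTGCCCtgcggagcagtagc

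The windows of CDKN1A and TP53I3 held no half-site of this form, which says nothing of bases outside the windows or of other forms of p53 site. The 250 bases before the start of TP53I3 (chr2:24084835-24085084, minus strand) are shown because TP53I3 was the only one of the 34 genes that passed the test in any comparison.
TP53I3: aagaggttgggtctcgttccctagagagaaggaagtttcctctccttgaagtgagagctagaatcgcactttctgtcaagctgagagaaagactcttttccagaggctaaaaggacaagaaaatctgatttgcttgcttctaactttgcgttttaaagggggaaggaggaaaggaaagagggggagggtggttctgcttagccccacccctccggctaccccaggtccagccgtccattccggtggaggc

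The libraries held 15439836 to 22092600 counts, so that 3 counts, the most that an observed 0 allows, corresponded to 0.136 to 0.194 CPM (counts scaled to the library size) per library, a limit that covers counting error only. Library sizes were corrected with edgeR's TMM factors. Of 10 monocytic markers, 9 were present in every library at more than 5 CPM, whereas CD68 stayed between 0.108 and 0.857 CPM, and the summed list ran from 719 to 848 CPM in mono-culture, 757 to 895 CPM with control ECs, 809 to 1130 CPM with senECs and 819 to 1018 CPM with EGCG-treated senECs. The 12 endothelial markers summed to 21.9 to 28.0, 25.3 to 27.9, 26.1 to 34.8 and 25.7 to 28.9 CPM in the same order, most of it EGFL7, while the defining endothelial cadherin CDH5 had 2 counts in all 12 libraries. The third senEC library, number 5, stood apart: genes with under 2839.75 bp of exon deviated there by a median of 0.14, and genes with over 7190 bp by -0.10, from their mean over all libraries on the log2 scale. For several differences the value without that library is given as well.

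Among the 34 genes, BTG2, an antiproliferative gene, had the highest level per exon length, at a mean of 108 FPKM (CPM per kilobase of exon), followed by TP53I3, an oxidoreductase gene of the p53 death pathway, at 58.8 FPKM and GADD45A, a stress sensor that slows the cell cycle, at 30.2 FPKM. CDKN1A stood at 15.9 FPKM and MDM2 at 10.2 FPKM. At the low end were GDF15, a secreted stress cytokine, at 1.02 FPKM, PHLDA3, an inhibitor of AKT, at 0.99 FPKM, the death receptor FAS at 0.23 FPKM, the mitochondrial quality gene SPATA18 at 0.12 FPKM and the glycolysis regulator TIGAR at 0.05 FPKM. TIGAR had 45 counts in all libraries together, and a gene on the same strand covers 42.6% of its exon length, so that its few reads may not be its own. Reads of PHLDA3 (19.1% overlapped on the same strand) are uncertain in the same way. Those of XPC (23.8% on the opposite strand) are uncertain because the strand setting of the counting is not given in the sources used here.

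CDKN2A (chr9:21967753-21995301) and CDKN2B (chr9:22002903-22009363), positions in GRCh38, had 0 counts in all 12 libraries, which with 218232119 counts in all allows a level of up to 0.0137 CPM. Of their neighbours, the methylthioadenosine phosphorylase gene MTAP and the antisense gene CDKN2B-AS1 also had 0 counts everywhere, and DMRTA1 had 3 counts in all. No library in any group therefore held a detectable transcript of p16, ARF or p15, and whether the genes were silent or missing from these cells was not tested.

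Co-culture with senECs was first set against co-culture with control ECs. None of the 32 tested genes passed the test (edgeR quasi-likelihood test, adjusted p under 0.05), and of all genes tested none did (0%). By the other tool, DESeq2, none of the 32 passed either. Without adjustment 2 of the 32 had a p under 0.05 (1 without senEC library 5), beside 6.61% of all genes. Fold changes were above 0 for 17 genes and below 0 for 15, with a median of 0.04 on the log2 scale against -0.01 over all genes, and ran from -0.36 to 0.55. Without senEC library 5 the split was 15 above and 17 below 0, with a median of -0.01. For 27 of the 32 genes the 95% interval excluded a 2-fold difference in either direction. The exceptions were FAS, SPATA18, TIGAR, PHLDA3 and TP53INP1, whose intervals were wider.

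CDKN1A, the best known p53 target and a mark of senescence, stood at 46.0, 50.8 and 57.2 CPM with control ECs and at 40.3, 39.8 and 64.8 CPM with senECs. The senEC libraries thus lay on both sides of the control libraries, and the high one was library 5. The log2 difference was -0.09 (SE 0.17, 95% interval -0.44 to 0.26, adjusted p = 0.927), and -0.36 without senEC library 5. MDM2, which marks p53 for degradation, stood at 112, 139 and 158 CPM with control ECs and at 123, 132 and 132 CPM with senECs, a narrower spread inside that of the controls (log2 difference -0.08, SE 0.14, 95% interval -0.38 to 0.22, adjusted p = 0.926). Without control EC library 3 the MDM2 difference was 0.04. PPM1D, the phosphatase that ends p53 signalling, was at 15.6 CPM ± 1.26 with control ECs and 15.1 CPM ± 2.62 with senECs (SD, n = 3).

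**Figure D1:**
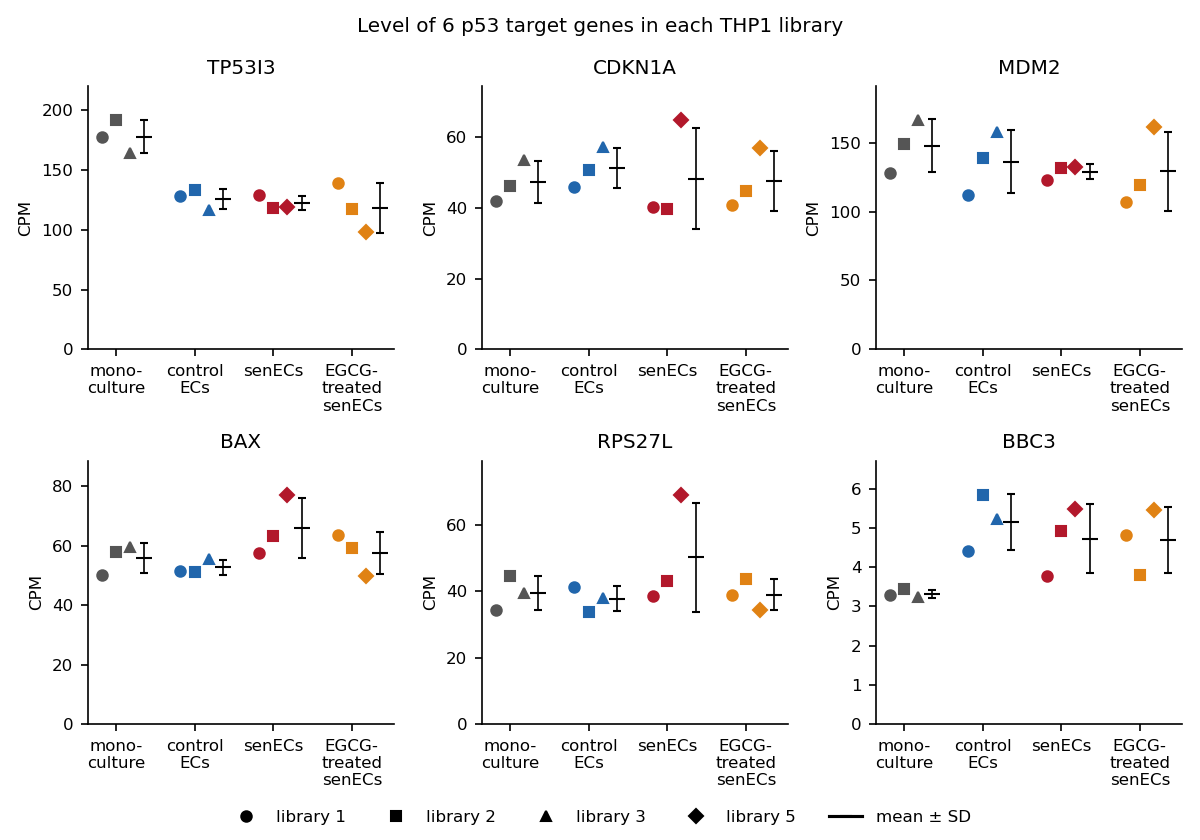
Level in CPM (vertical axes, from 0) of 6 genes in each of the 12 THP1 libraries (points, shaped by library number) with the group mean and SD. TP53I3 lay lower in all 9 co-culture libraries than in mono-culture, while the groups overlapped for CDKN1A and MDM2 and the highest values of BAX and RPS27L were those of senEC library 5.

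In the apoptosis group, with 11 genes tested, 6 fold changes were above 0 and the median was 0.01 (5 above 0 without senEC library 5). BAX, which opens the mitochondrial membrane, stood at 51.5, 51.0 and 55.4 CPM with control ECs and at 57.4, 63.2 and 77.0 CPM with senECs. It was the only one of the 32 genes whose senEC libraries all lay above the control libraries, a pattern of 5.31% of all genes. The log2 difference was 0.32 (SE 0.12, unadjusted p = 0.0152, adjusted p = 0.728), and 0.20 without senEC library 5.

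RPS27L, a ribosomal protein paralogue, stood at 41.3, 33.8 and 37.9 CPM with control ECs and at 38.6, 43.0 and 68.9 CPM with senECs. The groups overlapped, and the value of library 5 was far above every other library. The difference was 0.41 (SE 0.17, unadjusted p = 0.0255, adjusted p = 0.728) and became 0.11 without that library. PHLDA3 stood at 3.65, 2.33 and 2.00 CPM with control ECs and at 3.15, 3.64 and 4.96 CPM with senECs, again highest in library 5, with a difference of 0.55 (SE 0.27, unadjusted p = 0.0521, adjusted p = 0.728) and of 0.35 without library 5. BAX, RPS27L and PHLDA3 thus all differed by less without library 5, the library that stood apart by exon length. By that length, which merges the exons of all annotated transcripts, BAX (2587 bp) is among the short genes, with a median above 0 in library 5. RPS27L (9127 bp) counts by this measure among the long genes, with a median below 0 there, and PHLDA3 (3138 bp) is in neither set. The merged length can exceed that of the transcript present, which was not determined, so that the set of RPS27L is uncertain. The part of the shift in these differences was not tested. Leaving out other libraries moved them the other way, to 0.41 for BAX and 0.57 for RPS27L without senEC library 1 and to 0.85 for PHLDA3 without control EC library 1.

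Other apoptosis genes lay lower with senECs. AEN, an exonuclease of apoptosis, stood at 68.7, 68.9 and 65.3 CPM with control ECs and at 64.1, 58.5 and 64.1 CPM with senECs, so that its groups did not overlap. The difference was -0.12 (SE 0.09, unadjusted p = 0.205, adjusted p = 0.791). FDXR, a mitochondrial ferredoxin reductase, also lay lower in all senEC libraries (5.38 to 5.94 CPM) than in the control libraries (6.06 to 6.41 CPM), and these 2 of 32 genes stand beside 5.66% of all genes with this order.

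PMAIP1, which encodes the BCL2 antagonist NOXA, stood at 41.2, 41.4 and 46.0 CPM with control ECs and at 38.7, 36.1 and 43.4 CPM with senECs (difference -0.12, SE 0.11, unadjusted p = 0.303, adjusted p = 0.835, and -0.20 without senEC library 5). TP53INP1, a scaffold of p53 phosphorylation and autophagy, was among the most variable, at 4.22, 10.9 and 9.61 CPM with control ECs and 5.26, 5.38 and 8.64 CPM with senECs. Both groups of TP53INP1 spanned a wide range, and its difference was -0.36 (SE 0.36, unadjusted p = 0.324, adjusted p = 0.843). It ran from -0.67 without control EC library 1 to -0.10 without control EC library 2, and was -0.63 without senEC library 5. The remaining apoptosis genes had small differences: 0.12 for the death receptor TNFRSF10B, 0.14 for the survival gene TRIAP1, 0.01 for the RNA-binding ZMAT3, -0.13 for BBC3, the gene of PUMA, and -0.08 for FAS.

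Of the 7 tested genes of cell cycle arrest, 5 had a fold change above 0 with a median of 0.13, the highest being the stress kinase gene PLK2 at 0.24 (SE 0.18) and GADD45A at 0.21 (SE 0.16). Among the senEC libraries both were highest in library 5, at 24.1 CPM against 18.8 and 16.3 CPM for PLK2 and 86.8 CPM against 56.2 and 58.5 CPM for GADD45A. Without that library PLK2 differed by 0.08, GADD45A by -0.02 and PLK3 by -0.19, and 3 of the 7 genes lay above 0. The other values with all libraries were 0.18 for PLK3, 0.13 for the cyclin gene CCNG1, 0.09 for GADD45B and -0.05 for BTG2. The 4 genes of DNA repair and nucleotide supply ran from -0.11 for RRM2B, a ribonucleotide reductase subunit, over -0.07 for the translesion polymerase gene POLH and -0.04 for XPC to 0.08 for DDB2. Of the 7 genes of metabolism, redox and autophagy, the largest value among those above 1 CPM was that of SESN2, a stress sensor that restrains mTORC1, at 0.34 (SE 0.18, unadjusted p = 0.0748). SESN2 stood at 18.1, 20.0 and 20.5 CPM with control ECs and 18.4, 26.6 and 29.4 CPM with senECs, which overlapped, and differed by 0.20 without library 5. Its paralogue SESN1 differed by 0.13, the lysosomal gene DRAM1 by 0.10 and TP53I3 by -0.04. GDF15, with 24 to 57 counts per library, differed by -0.08 (SE 0.35).

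Co-culture with EGCG-treated senECs was then set against senECs. None of the 32 genes passed (adjusted p = 1 for each), nor did any of all genes tested (0%), and DESeq2 called none of the 32. A single gene, RPS27L, had an unadjusted p under 0.05 (none without senEC library 5), beside 2.22% of all genes. The 32 fold changes split into 16 above and 16 below 0, their median was 0.00, and for 29 genes the 95% interval excluded a 2-fold difference. Without senEC library 5 the split was 22 above and 10 below 0, with a median of 0.08. The directions within the roles moved with that library as well: of the 7 arrest genes 1 lay above 0 with it and 6 without it, and of the 4 DNA repair genes 4 with it and 2 without it.

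CDKN1A stood at 40.9, 44.9 and 57.0 CPM with EGCG-treated senECs, inside the range of the senEC libraries, with a difference of -0.02 (SE 0.17, 95% interval -0.37 to 0.33). Without senEC library 5 the sign changed, to 0.25. MDM2 stood at 107, 119 and 162 CPM, on both sides of the senEC libraries, with a difference of 0.00 (SE 0.14, 95% interval -0.30 to 0.30). Neither gene therefore differed by more than the spread of its libraries.

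Among genes above 1 CPM, the 3 with the smallest p were those below 0 that had been highest in senEC library 5 among the senEC libraries. RPS27L stood at 38.7, 43.6 and 34.3 CPM with EGCG-treated senECs, overlapping senECs, and its difference of -0.37 (SE 0.17, unadjusted p = 0.0446) shrank to -0.07 without senEC library 5. BAX stood at 63.5, 59.1 and 49.9 CPM, a difference of -0.20 (SE 0.12, unadjusted p = 0.124) that also became -0.07 without that library. PHLDA3 stood at 3.23, 2.73 and 3.00 CPM, a difference of -0.39 (SE 0.27, unadjusted p = 0.165) and of -0.18 without it. These 3 genes were the ones with the smallest unadjusted p above 0 in the comparison with control ECs, and since both comparisons use the same senEC libraries the opposite signs are not independent of each other.

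In the other direction, DDB2, the damage recognition subunit of nucleotide excision repair, stood at 19.2, 12.1 and 18.7 CPM with senECs and at 20.2, 16.8 and 20.6 CPM with EGCG-treated senECs (difference 0.20, SE 0.17, unadjusted p = 0.260), and differed by 0.02 without senEC library 2 and by 0.32 without senEC library 1. FDXR stood at 5.94, 5.50 and 5.38 CPM with senECs and at 7.55, 6.35 and 4.93 CPM with EGCG-treated senECs, with a difference of 0.16 (SE 0.19, unadjusted p = 0.417) that ran from 0.01 without EGCG-treated senEC library 1 to 0.31 without library 5 of the same group. GDF15 stood at 1.24, 2.31 and 2.42 CPM and at 1.95, 2.73 and 1.88 CPM, a difference of 0.14 (SE 0.35, unadjusted p = 0.699) that turned to -0.12 without senEC library 1 and was 0.30 without senEC library 5. All 3 overlapped between the groups. SPATA18, under 1 CPM, stood at 0.35 to 0.54 CPM with senECs and at 0.70 to 0.85 CPM with EGCG-treated senECs, from 6 to 14 counts per library. Its difference was 0.80 (SE 0.52, unadjusted p = 0.138), and the share of all genes whose libraries did not overlap here was not counted.

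**Figure D2:**
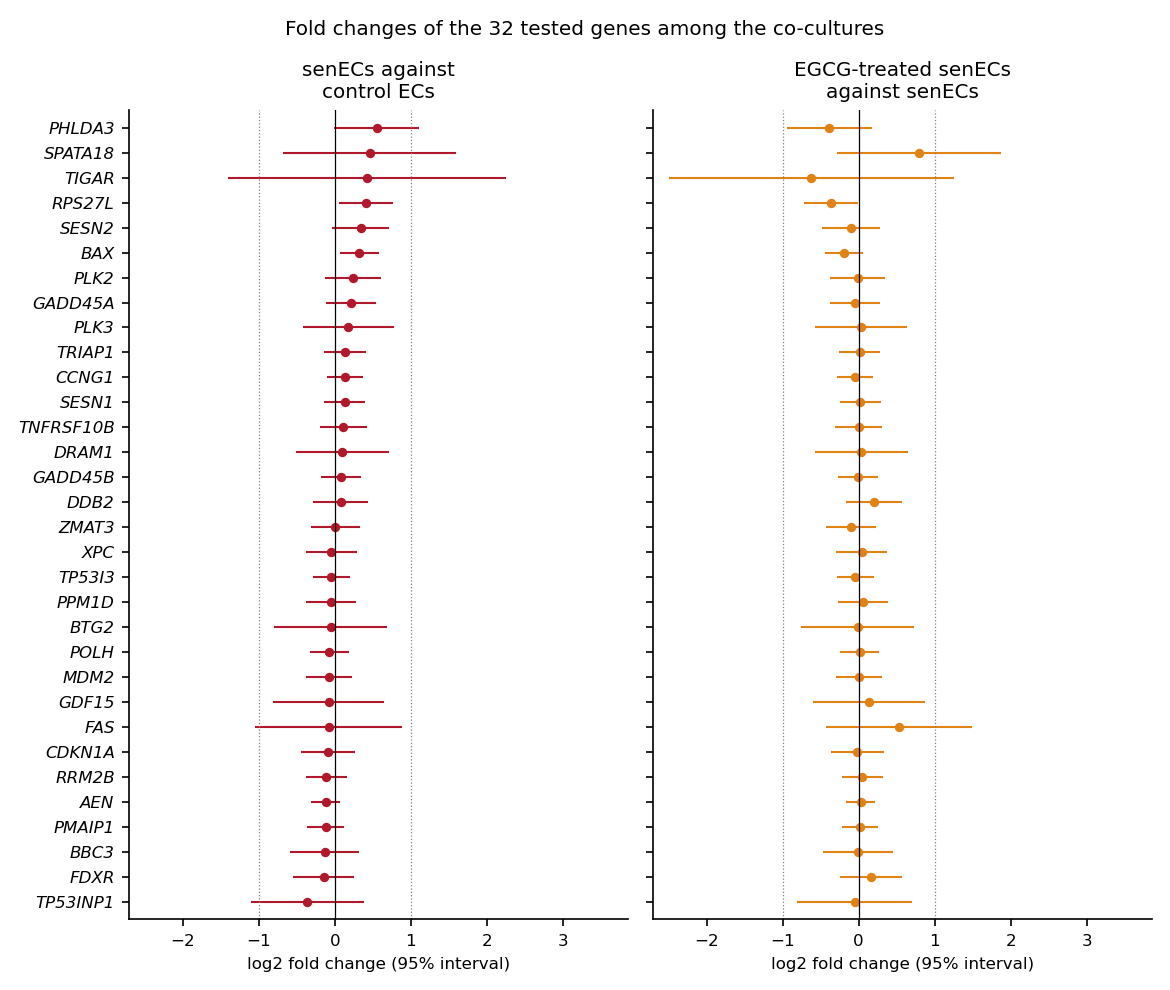
Log2 fold change (horizontal axis) of the 32 tested genes with its 95% interval (lines), on the left senECs against control ECs and on the right EGCG-treated senECs against senECs, in the order of the left panel. Dotted lines mark 2-fold differences. No gene passed the test in either comparison, and 27 and 29 intervals lay within the dotted lines.

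Between EGCG-treated senECs and control ECs, again none of the 32 genes passed with edgeR or DESeq2, as of all genes (0%). Only SPATA18 had an unadjusted p under 0.05, beside 4.55% of all genes. Its levels were 0.38, 0.26 and 0.33 CPM with control ECs and 0.85, 0.83 and 0.70 CPM with EGCG-treated senECs, from 6 to 18 counts per library over the 12 libraries. The median fold change of the 32 genes was 0.05.

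Each co-culture was also compared with mono-culture, a contrast that holds the presence of ECs of any kind, and the 3 comparisons share the mono-culture libraries. The share of all genes that passed was 0.143% for control ECs, 0.309% for senECs and 0.213% for their EGCG-treated counterpart. Of the 32 genes, TP53I3 passed with EGCG-treated senECs, and none passed in the other comparisons.

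TP53I3 (ENSG00000115129.13, chr2:24077433-24085861 in GRCh38, minus strand) encodes a quinone oxidoreductase that p53 induces before apoptosis. It stood at 178, 192 and 164 CPM in mono-culture. It stood at 128, 133 and 117 CPM with control ECs, at 129, 119 and 119 CPM with senECs and at 139, 118 and 97.8 CPM with EGCG-treated senECs. All 9 co-culture libraries lay below the 3 of mono-culture, an order that 1.64% of all genes showed, and the co-cultures overlapped among themselves. TP53I3 fell by 0.59 on the log2 scale with EGCG-treated senECs (SE 0.12, 95% interval -0.83 to -0.35, adjusted p = 0.0384). The differences with control ECs (-0.50, SE 0.12, adjusted p = 0.145) and with senECs (-0.54, SE 0.12, adjusted p = 0.0501) were of like size but did not pass, whereas with DESeq2 all 3 passed, at adjusted p = 0.0173, 0.00188 and 0.000864. When 1 library was left out, the difference with EGCG-treated senECs stayed between -0.73 and -0.47, and its call was lost in 8 of the 12 fits, with an adjusted p of up to 0.245. In such bulk RNA, fewer cells with the transcript and less transcript per cell cannot be told apart. Among the co-cultures TP53I3 differed by -0.04 between senECs and control ECs (95% interval -0.29 to 0.20) and by -0.05 between EGCG-treated senECs and senECs (95% interval -0.29 to 0.20).

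The other way round, GADD45B and BBC3 were the 2 of 32 genes that lay above mono-culture in all 9 co-culture libraries, beside 1.77% of all genes, and neither passed the test. GADD45B stood at 16.5, 18.1 and 20.4 CPM in mono-culture, against 20.4 to 23.1 CPM with control ECs, 21.8 to 24.8 CPM with senECs and 20.8 to 24.2 CPM with EGCG-treated senECs. Its differences from mono-culture were 0.24, 0.33 and 0.31 (adjusted p = 0.791, 0.350 and 0.514). BBC3 stood at 3.29, 3.45 and 3.25 CPM in mono-culture and at 3.77 to 5.84 CPM in the co-cultures, with 53 to 133 counts per library. Its differences were 0.63, 0.50 and 0.50 (SE 0.22 each, adjusted p = 0.583, 0.422 and 0.563), largest with the undamaged control ECs.

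Without adjustment, 5 of the 32 genes had a p under 0.05 in each of the 3 comparisons with mono-culture, beside 6.52% of all genes for control ECs, 11.0% for senECs and 8.58% for EGCG-treated senECs. With control ECs these were BBC3 and AEN above 0 and TP53I3, SESN1 and SPATA18 below it. With senECs they were GADD45B, BBC3 and SESN2 above 0 and TP53I3 and RRM2B below it. With EGCG-treated senECs they were FAS, GADD45B and BBC3 above 0 and TP53I3 and ZMAT3 below it. Without senEC library 5 the count with senECs was 2. FAS stood at 0.87, 0.16 and 0.55 CPM in mono-culture and at 1.34, 1.02 and 1.71 CPM with EGCG-treated senECs, from 3 to 32 counts per library. CDKN1A differed from mono-culture by 0.12, 0.03 and 0.01 and MDM2 by -0.12, -0.20 and -0.19, and the libraries of both overlapped with mono-culture in all 3. The medians of the 32 fold changes were -0.06, 0.03 and 0.03.

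**Figure D3:**
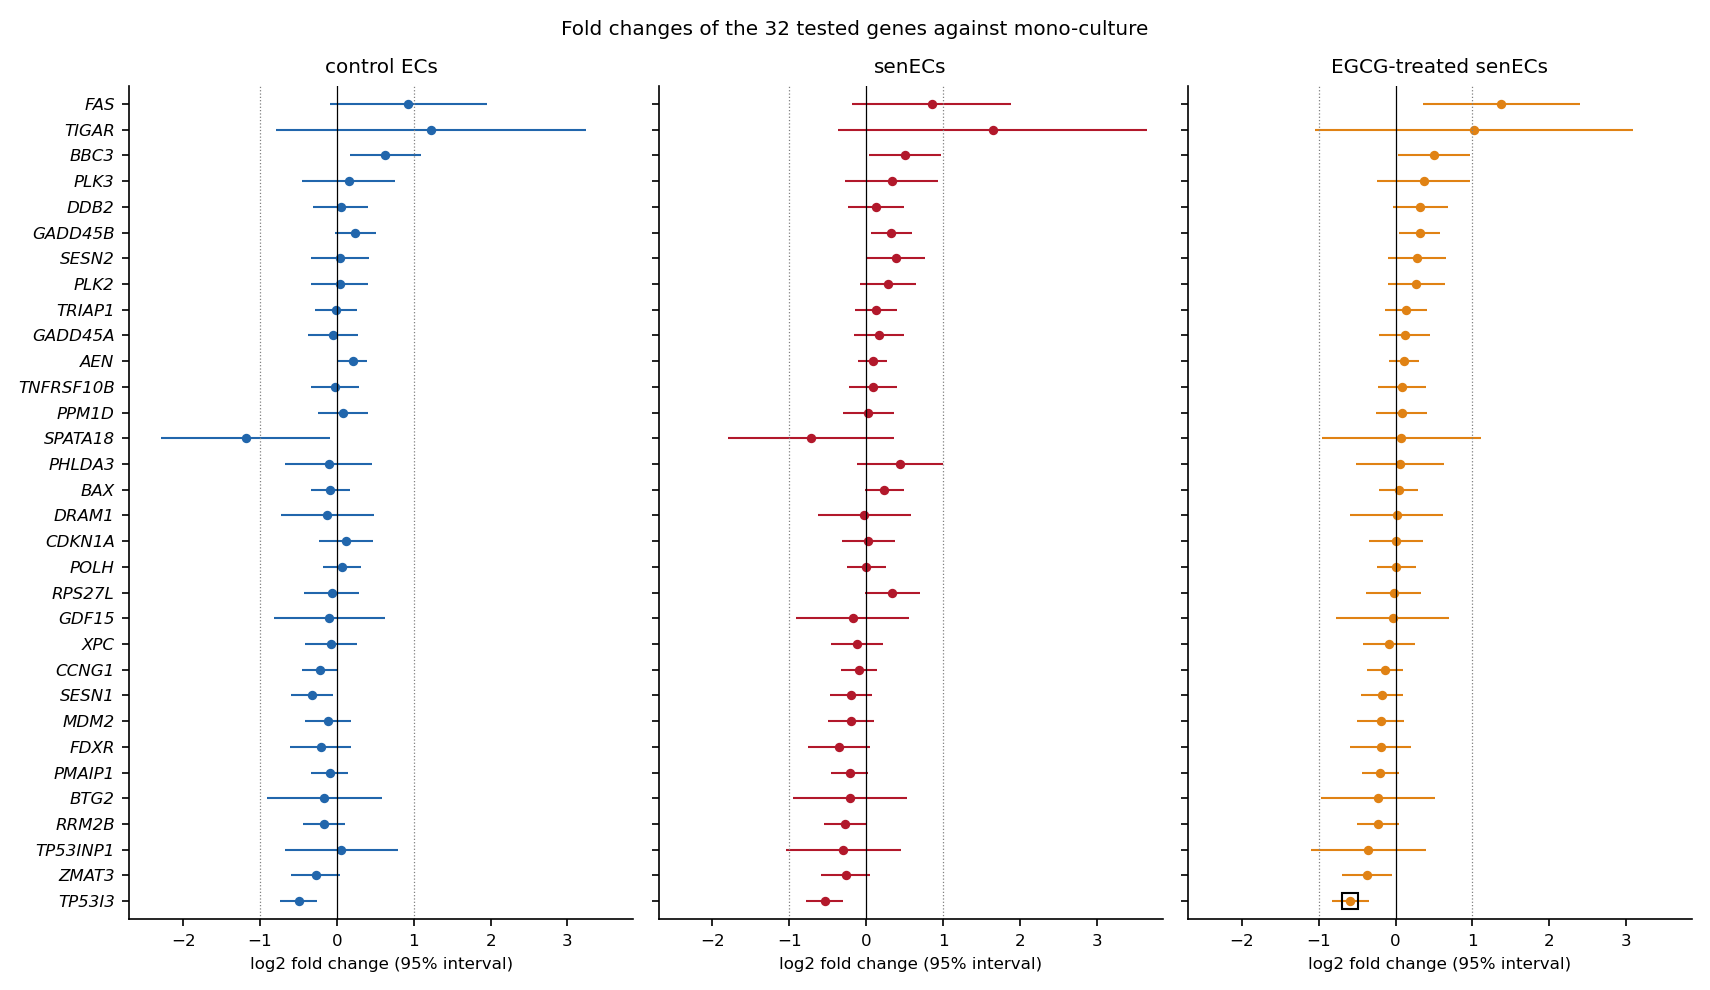
Log2 fold change (horizontal axis) of the 32 tested genes against mono-culture with its 95% interval (lines), 1 panel for each co-culture, in the order of the EGCG-treated senECs on the right. The square marks TP53I3, the only gene that passed the test, and dotted lines mark 2-fold differences.

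For some of the genes the library number went with larger differences than the co-culture did. Of the 29 genes with a mean of at least 1 CPM, 4 were lowest in library 1 and highest in library 3 or 5 in all 4 groups: BTG2, DRAM1, GADD45A and MDM2. This order was seen in 2.87% of the 14397 genes of such a level, and the reverse order in 0.945% of them and in 0 of the 29.

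BTG2 stood at 165 to 203 CPM in the 4 libraries numbered 1, 236 to 302 CPM in those numbered 2 and 430 to 486 CPM in those numbered 3 or 5, while its group means ran only from 282 to 330 CPM. DRAM1, a lysosomal gene of p53-dependent autophagy, stood at 59.7 to 69.0, 96.3 to 122 and 127 to 144 CPM in the same order. These ranges of BTG2 and DRAM1 did not overlap between the numbers. GADD45A stood at 49.2 to 58.7, 58.4 to 60.0 and 66.4 to 86.8 CPM, and MDM2 at 107 to 128, 119 to 149 and 132 to 166 CPM. For GADD45A the ranges of numbers 1 and 2 overlapped, and for MDM2 each range overlapped the next. The summed level of 10 LPS-induced genes, among them TNF, IL1B and CXCL8, moved with the numbers as well, at 1957 to 2297 CPM in libraries 1, 2569 to 2658 CPM in libraries 2 and 3752 to 4793 CPM in libraries 3 or 5. Its part in the levels of these genes was not tested, and the labels do not say what the numbers stand for.

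**Figure D4:**
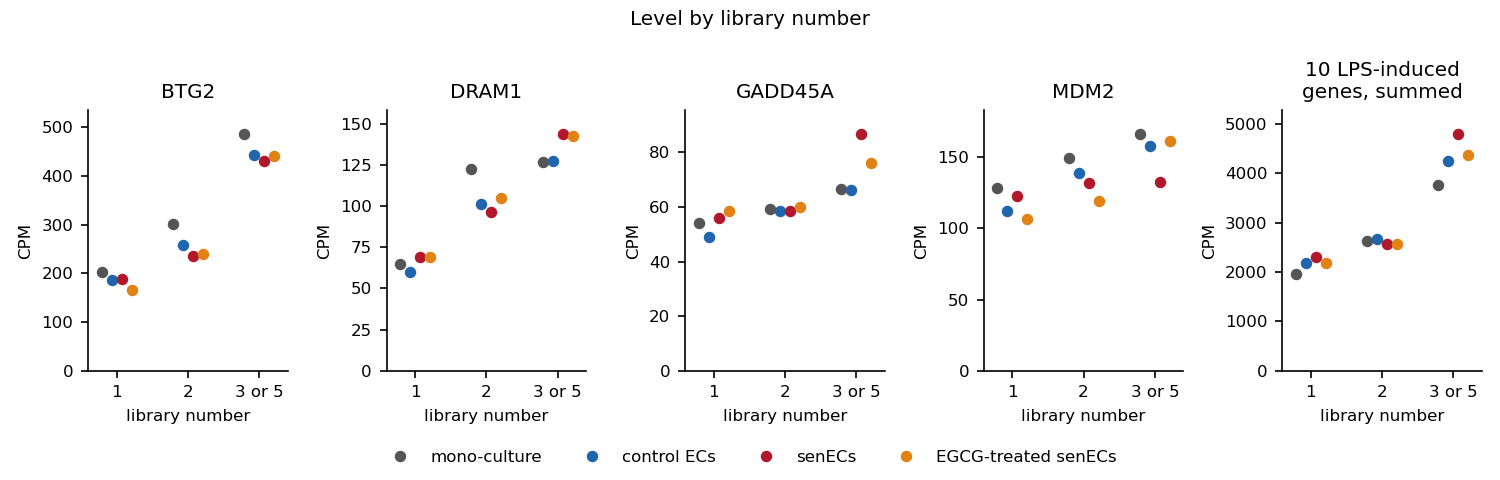
Level in CPM (vertical axes, from 0) of BTG2, DRAM1, GADD45A and MDM2 and the summed level of 10 LPS-induced genes, by library number (horizontal axis) and coloured by group. In each group the lowest point is library 1 and the highest is library 3 or 5.

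Further genes of the pathway were read from lists. Of the 24 genes of p53 and damage sensing, all tested, none passed in any of the 6 comparisons. Between senECs and control ECs, 4 of the 24 had an unadjusted p under 0.05, all lower with senECs, beside 6.61% of all genes in either direction. Their values without senEC library 5 are not given here. The highest gene of this list was PRKDC, the catalytic subunit of the DNA-dependent protein kinase, at 1189 to 1943 CPM.

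Of 44 further p53 targets, 41 were tested, and 1 passed in 1 comparison: TP53I11 rose with senECs against mono-culture, from 21.6 CPM ± 1.32 to 34.5 CPM ± 4.01 (SD, n = 3 each; log2 difference 0.68, SE 0.13, adjusted p = 0.0320). In the 12 fits that left 1 library out the difference ran from 0.62 to 0.77, and the call was lost in 5, those without mono-culture library 1, 2 or 3 or senEC library 2 or 5. It stood at 30.1 CPM ± 4.05 with control ECs and 32.9 CPM ± 4.22 with EGCG-treated senECs. Hence TP53I11 was higher and TP53I3 lower beside mono-culture, and neither passed the test among the co-cultures. The 41 genes had a median log2 difference of 0.05 between senECs and control ECs, and of -0.03 when EGCG-treated senECs were compared with senECs, with none passing.

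Of 14 further senescence genes, which include the cell cycle inhibitor genes CDKN1B and CDKN2C and the lamin gene LMNB1, none passed in any comparison. Their median difference was 0.12 for senECs against control ECs, none with an unadjusted p under 0.05, and 0.19 for senECs against mono-culture, 5 of them with an unadjusted p under 0.05, beside the 11.0% of all genes given above. These were CDKN1B, CDKN1C, CDKN2D, IGFBP3 and HMGB1, all above 0, in a list that mixes genes known to rise in senescence with genes known to fall, such as LMNB1. With senECs they stood, in that order, at 46.8 ± 5.65, 0.73 ± 0.06, 12.4 ± 0.66, 19.5 ± 6.86 and 746 ± 95.6 CPM (SD, n = 3). CDKN1C had only 3 to 15 counts per library. Their means were 36.9, 0.19, 9.85, 11.4 and 617 CPM in mono-culture and 44.6, 0.45, 10.8, 14.6 and 653 CPM with control ECs. With EGCG-treated senECs the means were 44.1, 0.63, 10.4, 18.5 and 725 CPM. For each of these genes the mean of every co-culture, control ECs included, thus lay above mono-culture. Their differences without senEC library 5 are not given here. Of 12 genes that p53 represses through p21, such as CCNB1, CDK1 and PLK1, none passed either. Their medians were 0.06 between senECs and control ECs and -0.02 between EGCG-treated senECs and senECs, and 8 and 4 of the 12 lay above 0. None of the 10 LPS-induced genes passed in any comparison. Of the marker lists, CD14, the LPS co-receptor, was higher with senECs against mono-culture (log2 difference 2.09, SE 0.42, adjusted p = 0.0363), from 8.92 CPM ± 2.67 to 38.2 CPM ± 25.1 (SD, n = 3 each), but by 1.44 without senEC library 5 (adjusted p = 0.258), and the call was lost in 7 of the 12 fits that left 1 library out, those without mono-culture library 1, 2 or 3, control EC library 2, senEC library 2 or 5 or EGCG-treated senEC library 2. With control ECs CD14 stood at 18.9 CPM ± 6.91 and with EGCG-treated senECs at 27.5 CPM ± 14.4, means that also lay above mono-culture. No other monocytic and no endothelial marker passed.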

How the data were processed

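RNA sequencing of 12 THP1 libraries was analysed from the counts that the authors deposited, whole numbers of reads per gene without normalization. Per the labels, reads were aligned with HISAT2 to hg38. The counting program, its strand setting and the annotation are not given in the sources used here. A further 4 columns matched no described sample and were left out. Groups came from the labels.

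From the counts, edgeR 4.0.16 in R 4.3.3 (quasi-likelihood test, TMM normalization, Benjamini-Hochberg adjustment over 25873 genes with at least 10 counts in all) was fitted to all 12 libraries without covariates. A gene passed at an adjusted p under 0.05, with no minimum fold change, and the 6 comparisons were adjusted separately. Standard errors were obtained from the log2 fold change and edgeR's F statistic. The deviations of libraries used log2 of CPM plus 2. The study used DESeq2, which was run here (1.42.0) as an alternative. Other alternatives were its size factors, 2 other filters, only the 6 libraries compared, a replicate block and each library left out. Positions, lengths and overlaps came from GENCODE release 29 (GRCh38), which holds all 57169 distinct symbols of the table. Exon length was that of the merged exons of all transcripts of a gene. The test was run on simulated data before use. Replicates differed by more than sampling noise (chi-square per degree of freedom 9.23 to 33.7), which does not show that they came from separate cultures. Each library was counted as 1 sample.

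The genes and lists were chosen with earlier results of these data known. Full values are given for each gene that passed, for CDKN1A, MDM2, CDKN2A and CDKN2B, and for the 3 genes per direction with the smallest unadjusted p and a mean of at least 1 CPM in senECs against control ECs and in EGCG-treated senECs against senECs. Other genes named with library values were chosen after their values were seen, and 1 gene of the lists is not reported here. Figures were drawn with matplotlib 3.10.9 in Python 3.11.15.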

Additional observations from a re-analysis of the deposited data

How the results depend on the processing

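No setting gave a call among the 3 co-cultures. Against mono-culture the calls changed. With control ECs 1 gene passed with DESeq2, with all genes that had a count and with the replicate block, in place of 0. With senECs 1 gene passed with DESeq2, with DESeq2's size factors, with all genes that had a count and with the replicate block, in place of 0, and 0 to 1 when a library was left out. In each of these the gene was TP53I3. With EGCG-treated senECs, 0 passed in place of 1 with at least 10 counts in every library and with only the 6 libraries compared, 2 with the replicate block (TP53I3 and PLK3), and 0 to 1 when a library was left out. The TP53I3 call was lost without mono-culture library 1, 2 or 3, control EC library 1 or 2, senEC library 2 or EGCG-treated senEC library 2 or 5, and with senECs it was gained without senEC library 1 or EGCG-treated senEC library 1 or 5. The cause was not tested.

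The library numbers were taken as numbers only. Libraries with the same number did not always deviate together. The correlation of their deviations from the group means was 0.38 to 0.50 for the 6 pairs numbered 1 and 0.03 to 0.27 for the 6 pairs numbered 2. It was 0.35 for the pair numbered 3 and 0.29 for the pair numbered 5. The 40 pairs of different numbers ran from -0.47 to 0.47. Highest among these were the pairs of a library 3 with a library 5, at 0.32, 0.34, 0.39 and 0.47. All other pairs of different numbers were at most 0.18.

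Differences near 0 changed sign. CDKN1A in EGCG-treated senECs against senECs was 0.0023 with at least 10 counts in every library and -0.17 to 0.25 when a library was left out, and in senECs against control ECs it was -0.357 to 0.0327. MDM2 in EGCG-treated senECs against senECs was -0.0096 with all genes that had a count, -0.0196 with the replicate block and -0.19 to 0.13 when a library was left out, and in senECs against control ECs -0.199 to 0.0407. Leave-outs added after seeing the data gave -0.0162 to 0.325 for GADD45A and -0.190 to 0.413 for PLK3 in senECs against control ECs. GDF15 in EGCG-treated senECs against senECs was -0.12 to 0.30. The median of the 32 genes was -0.0135 to 0.136 for senECs against control ECs and -0.0721 to 0.0801 for EGCG-treated senECs against senECs. The intervals given came from the fit without the replicate block. With 3 libraries per group, that fit could not resolve differences smaller than these intervals. The fit with the block gave further calls against mono-culture, as stated above.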
